A study of Mus musculus with 9 samples.

Results

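The primary granule protein genes are described here across 3 groups of mouse leukemia. The group holds 8 genes active in promyelocytes: Mpo, Elane, Prtn3, Ctsg, Ms4a3, Prss57, Ctsc and Srgn. Members were taken by name, and every probe set of the deposited array table whose single gene symbol was one of these names was kept. That gave 9 probe sets for 7 of the 8 genes, out of 45101 probe sets and 18194 genes in all. Mpo, Elane, Prtn3, Ctsg, Ms4a3 and Srgn had 1 probe set each and Ctsc had 3. No probe set carried Prss57 as its single symbol, so Prss57 was not analysed here.

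The arrays were 9 one-colour Affymetrix mouse arrays, 3 per group, all from freshly taken bone marrow of leukemic mice of C57/BL6 X 129 strain. Both MLL-AF9 groups came from primary leukemias homozygous for a floxed Af10 (Mllt10), whose product works with the histone methyltransferase DOT1L. The Af10 floxed group received the tdTomato vector MIT and the Af10 deleted group the same vector with Cre recombinase. Each was then passed into further recipient mice and sorted for tdTomato. The third group, Hoxa9-Meis1, held primary leukemias from cells transduced with those genes, neither sorted nor treated. In comparisons with it the oncogene therefore cannot be told apart from passage, vector or sorting. For the deleted group the oncogene cannot be told apart from Cre or loss of Af10 either. Cre was present in the deleted group alone, so loss of Af10 and Cre itself cannot be told apart. The labels do not give ages or say that every array is another mouse, so p-values measure only how these samples spread, which may be technical.

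Primary granules, also called azurophil granules, are the first granules to form in developing neutrophils, at the promyelocyte stage. They store myeloperoxidase and a set of serine proteases that digest microbes. The proteases are made as inactive precursors, are cut to their active form by cathepsin C, and are packed with the proteoglycan serglycin. Genes for myeloperoxidase and the serine proteases are switched on in granulocyte and monocyte progenitors by factors such as PU.1, C/EBP alpha, Myb and Runx1. These genes are shut down as neutrophils mature. Myeloid leukemias halted at this stage express many of them.

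The promoters of 4 members are printed to show the sequences from which these transcripts start: Elane and Prtn3, which are direct neighbours on chromosome 10 and had a like pattern over the arrays, Mpo as a level that moved little, and Ctsc, the member whose pattern differed most. Each is the 250 bases before a RefSeq transcript start in assembly GRCm38.p6, read 5′ to 3′ on the gene's own strand. Capitals mark matches, on either strand, to 4 short motifs: AGGAAG, the core that PU.1 and other Ets factors bind, CAACNG for Myb, GCAAT, one arm of a C/EBP site, and TATAA.
Elane, chr10:79886062-79886311, plus strand: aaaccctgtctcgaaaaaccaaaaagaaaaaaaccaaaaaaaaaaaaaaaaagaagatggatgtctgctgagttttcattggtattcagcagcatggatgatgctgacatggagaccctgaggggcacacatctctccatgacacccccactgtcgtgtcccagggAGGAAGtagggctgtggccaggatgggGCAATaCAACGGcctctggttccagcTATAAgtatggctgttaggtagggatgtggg
Prtn3, chr10:79879417-79879666, plus strand: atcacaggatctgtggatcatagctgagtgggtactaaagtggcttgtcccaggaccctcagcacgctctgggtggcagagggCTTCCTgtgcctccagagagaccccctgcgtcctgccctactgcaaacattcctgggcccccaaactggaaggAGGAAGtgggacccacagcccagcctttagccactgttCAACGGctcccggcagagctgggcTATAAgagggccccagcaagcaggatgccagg
Mpo, chr11:87793534-87793783, plus strand: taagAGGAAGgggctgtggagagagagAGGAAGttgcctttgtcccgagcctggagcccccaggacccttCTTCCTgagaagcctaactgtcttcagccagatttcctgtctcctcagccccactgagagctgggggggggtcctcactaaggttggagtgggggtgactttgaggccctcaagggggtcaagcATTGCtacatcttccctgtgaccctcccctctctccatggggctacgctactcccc
Ctsc, chr7:88277835-88278084, plus strand: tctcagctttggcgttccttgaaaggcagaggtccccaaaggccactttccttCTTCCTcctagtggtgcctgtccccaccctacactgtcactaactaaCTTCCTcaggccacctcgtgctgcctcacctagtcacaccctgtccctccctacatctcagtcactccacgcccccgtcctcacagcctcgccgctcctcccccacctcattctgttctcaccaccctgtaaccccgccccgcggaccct
In Elane the AGGAAG match lay 84 to 79 bases before the start, GCAAT 57 to 53, CAACGG 51 to 46 and TATAA 31 to 27. Prtn3 had the same order without the C/EBP letters, with its Ets match at 94 to 89 bases before the start, its Myb match at 56 to 51 and its TATA match at 32 to 28. A further Ets match lay on the opposite strand at 167 to 162. Mpo held 3 AGGAAG matches and a GCAAT match 56 to 52 bases before the start. Ctsc held 2 AGGAAG matches and none of the other 3 motifs, but its window does not lie at the start that RefSeq's gene table gives for Ctsc, as the other 3 windows do. Over the 7 members with a promoter in the RefSeq table, 6 genes held AGGAAG, 4 held CAACNG, 2 held GCAAT and 4 held TATAA. Srgn has 2 listed starts, and its CAACNG and TATAA matches are counted over both. By single promoter windows, of which the members have 8, the motifs were held by 6, 5, 2 and 4 in that order. The TATAA match of Srgn lay 98 to 94 bases before its start, and that of Ctsg at 236 to 232 on the opposite strand. Among all 32851 listed promoters of this length, 29.5% held AGGAAG, 29.3% CAACNG, 23.1% GCAAT and 22.8% TATAA. The motifs were chosen with these promoters in view, no match overlapped another, and a match is a description of the letters and not a binding site.

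All values below are log2(intensity + 1) unless said otherwise, and a log2 difference of 1 is a doubling. A gene was called when its adjusted p in limma, a linear model fitted over all genes at once, was under 0.05. Median intensities per array were 146 to 156. Arrays differed in 1 measure of RNA integrity: the control probe sets at the 3′ end of Gapdh exceeded those at its 5′ end by 1.03 on floxed replicate 5 and 0.44 to 0.81 on the other 8 arrays, while for beta-actin that difference was -0.41 to -0.34 on all 9. The targeted gene, Mllt10, ran from 10.49 to 11.20 in the floxed and from 9.89 to 10.19 in the deleted group (n = 3 each), a difference of -0.95 (SE 0.21, limma adjusted p = 0.0293). The defining leukocyte gene Ptprc (CD45) lay between 11.91 and 12.57 on all 9 arrays. Transcript levels are those of bulk cells, so fewer cells of a type and less RNA per cell cannot be told apart.

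None of the 7 measured primary granule genes was called after deletion of Af10, and all but Ctsc were among the brightest genes in all 3 groups. Of all genes, 6.85% were called in that comparison. At an unadjusted p under 0.05, 1 member passed (Ctsc) and 22.1% of all genes did. The median difference of the 7 members, deleted minus floxed, was 0.07, and that of all genes was 0.06. Of the 7, 4 had a higher mean in deleted leukemias and 3 a lower one, so the members had no common direction.

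**Figure D1:**
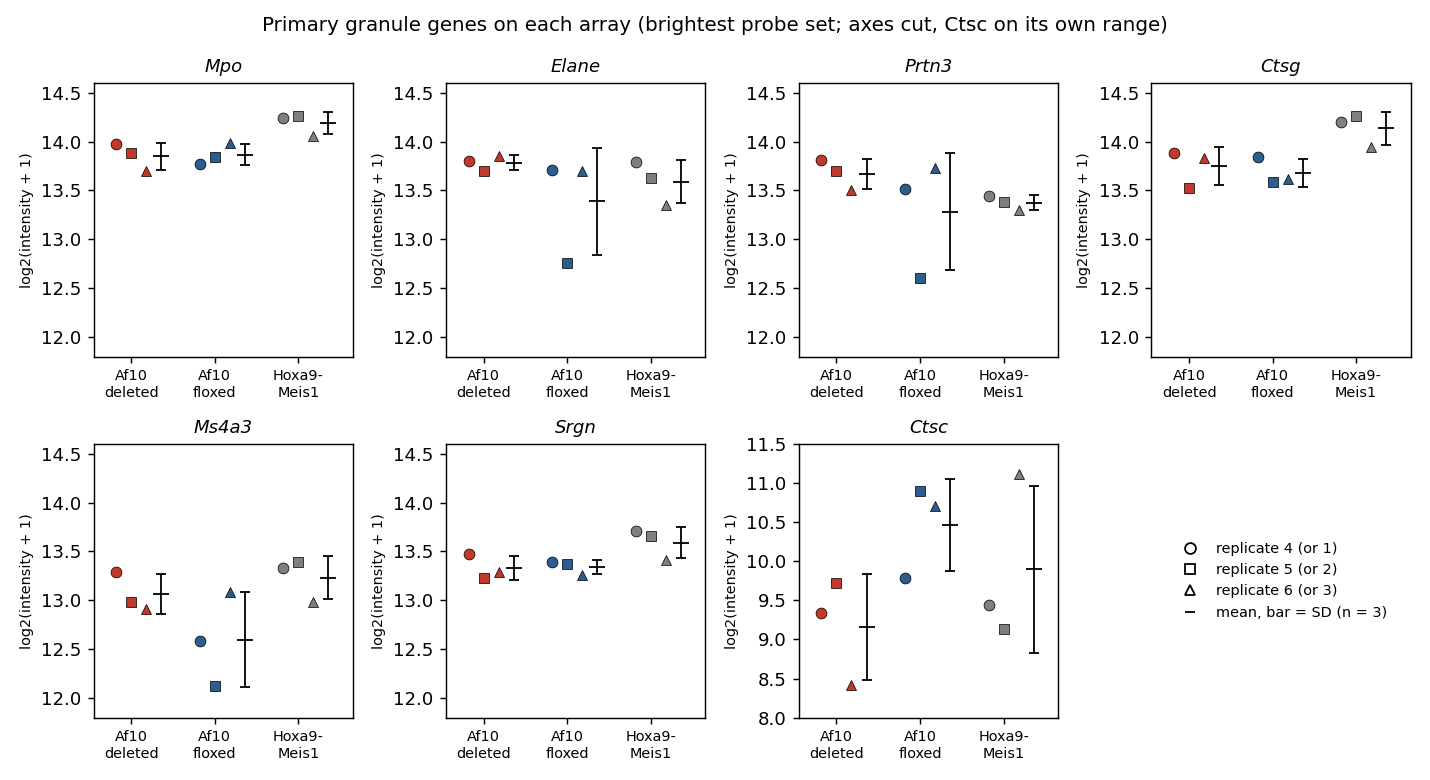
Level of each primary granule gene on every array, as log2(intensity + 1), for Af10 deleted, Af10 floxed and Hoxa9-Meis1 leukemias; points are arrays, and the bar beside them is the mean with its SD (n = 3). Vertical axes do not start at 0, and Ctsc has its own range. Mpo, Ctsg and Srgn vary little, floxed replicate 5 is low for Elane, Prtn3 and Ms4a3, and Ctsc spreads most.

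Mpo encodes myeloperoxidase, which makes hypochlorous acid from hydrogen peroxide and chloride. It was at 13.97, 13.88 and 13.69 in deleted replicates 4, 5 and 6, at 13.77, 13.85 and 13.98 in floxed replicates 4, 5 and 6, and at 14.24, 14.26 and 14.06 in the 3 Hoxa9-Meis1 leukemias. The deleted and floxed arrays overlapped fully, and all 3 Hoxa9-Meis1 arrays lay above all 6 MLL-AF9 arrays. Deleted minus floxed was -0.017 (SE 0.12, limma adjusted p = 0.952), with a 95% interval of -0.29 to 0.25. On a linear scale that interval runs from 0.82-fold to 1.19-fold.

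Srgn encodes serglycin, the core protein of the proteoglycan with which granule proteases are packed. It was at 13.47, 13.23 and 13.29 in deleted, 13.40, 13.37 and 13.26 in floxed and 13.71, 13.65 and 13.41 in Hoxa9-Meis1 leukemias. Deleted and floxed arrays overlapped, with a difference of -0.010 (SE 0.12, 95% interval -0.28 to 0.26, limma adjusted p = 0.971). Mpo and Srgn thus had the narrowest intervals of the 7 members in this comparison.

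Of the serine proteases, Ctsg encodes cathepsin G, which cuts after aromatic and some basic residues. It was at 13.89, 13.53 and 13.83 in deleted, 13.84, 13.58 and 13.62 in floxed and 14.20, 14.26 and 13.94 in Hoxa9-Meis1 leukemias. Deleted minus floxed was 0.068 (SE 0.14, 95% interval -0.25 to 0.39, limma adjusted p = 0.821). As with Mpo, the MLL-AF9 groups overlapped and every Hoxa9-Meis1 array was above them.

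Elane encodes neutrophil elastase. It was at 13.80, 13.70 and 13.85 in deleted, 13.71, 12.76 and 13.69 in floxed and 13.79, 13.63 and 13.35 in Hoxa9-Meis1 leukemias. The low floxed value was that of replicate 5, and the other 8 arrays lay between 13.35 and 13.85. Deleted minus floxed was 0.39 (SE 0.24, 95% interval -0.16 to 0.94, limma adjusted p = 0.383), and 0.08 without floxed replicate 5.

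Prtn3 encodes proteinase 3, a serine protease closely related to elastase. It was at 13.81, 13.70 and 13.51 in deleted, 13.52, 12.60 and 13.73 in floxed and 13.44, 13.38 and 13.30 in Hoxa9-Meis1 leukemias. Floxed replicate 5 was again the lowest array, differing from the mean of the other floxed arrays by -1.02, where Elane differed by -0.94. Deleted minus floxed was 0.39 (SE 0.25, 95% interval -0.19 to 0.96, limma adjusted p = 0.411), and 0.049 without that array.

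Ms4a3 encodes a membrane protein with several membrane spans that marks granulocyte and monocyte progenitors, and is grouped with the granule genes by its stage of expression. It was at 13.29, 12.99 and 12.91 in deleted, 12.58, 12.12 and 13.09 in floxed and 13.33, 13.39 and 12.98 in Hoxa9-Meis1 leukemias. Floxed replicate 5 was the lowest array once more, and replicate 4 was the next. Deleted minus floxed was 0.47 (SE 0.24, 95% interval -0.064 to 0.998, limma adjusted p = 0.286), and 0.23 without floxed replicate 5.

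Floxed replicate 5 was the low array of its group for these 3 members. The SD over the 3 floxed arrays was 0.54 for Elane, 0.60 for Prtn3 and 0.48 for Ms4a3, against 0.08, 0.15 and 0.20 in deleted leukemias. For Mpo, Srgn and Ctsg floxed replicate 5 differed from the mean of the other floxed arrays by -0.03, 0.04 and -0.15, and for the 3 Ctsc probe sets described next by 0.65, -1.11 and 0.41. It is the array with the wide Gapdh gap given above, and on it the median departure of genes was -0.01 on chromosome 10, which holds Elane and Prtn3, and -0.06 on chromosome 19, which holds Ms4a3. The part of RNA integrity in these 3 values was not tested.

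Ctsc, which encodes cathepsin C, the enzyme that removes a dipeptide from the serine protease precursors, was the member with the widest spread. Its brightest probe set, 1416382_at, was at 9.34, 9.72 and 8.41 in deleted, 9.79, 10.89 and 10.71 in floxed and 9.43, 9.13 and 11.11 in Hoxa9-Meis1 leukemias. The deleted arrays all lay below the floxed arrays, narrowly so for deleted replicate 5 against floxed replicate 4, and Hoxa9-Meis1 replicate 3 was the highest array of all. The means were 9.16 ± 0.67 (SD, n = 3) in deleted and 10.46 ± 0.59 (SD, n = 3) in floxed leukemias. The difference was -1.31 (SE 0.54, 95% interval -2.53 to -0.09), a 2.47-fold lower mean, with an unadjusted limma p of 0.0386 and a limma adjusted p of 0.198, so Ctsc was not called.

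The other 2 Ctsc probe sets were also lower in deleted than in floxed leukemias. Probe set 1437939_s_at, whose name marks probes that can bind several transcripts, was at 6.08, 6.46 and 5.18 in deleted, 9.06, 7.09 and 7.35 in floxed and 7.55, 6.36 and 8.91 in Hoxa9-Meis1 leukemias. Probe set 1446834_at was at 7.09, 6.87 and 6.78 in deleted, 7.78, 8.25 and 7.90 in floxed and 8.87, 7.41 and 9.55 in Hoxa9-Meis1 leukemias. For all 3 probe sets every deleted array lay below every floxed array. Of all probe sets, 24.8% did not overlap between these groups, and of all genes 25.9%. Fitted over all probe sets, the differences were -1.31, -1.93 and -1.06 in that order, with limma adjusted p of 0.206, 0.148 and 0.207, and 6.16% of all probe sets were called. The 3 probe sets are annotated to 1 gene and were read in the same 6 RNA samples, so they are not 3 separate observations. Ctsc lies on chromosome 7, whose genes departed by a median of -0.10 on floxed replicate 5 and by 0.02 on deleted replicate 6. Without deleted replicate 6, the lowest deleted array, the difference of the brightest probe set was -0.93, and over all alternatives it ran from -1.64 to -0.72, the last without deleted replicate 6 and floxed replicate 5.

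**Figure D2:**
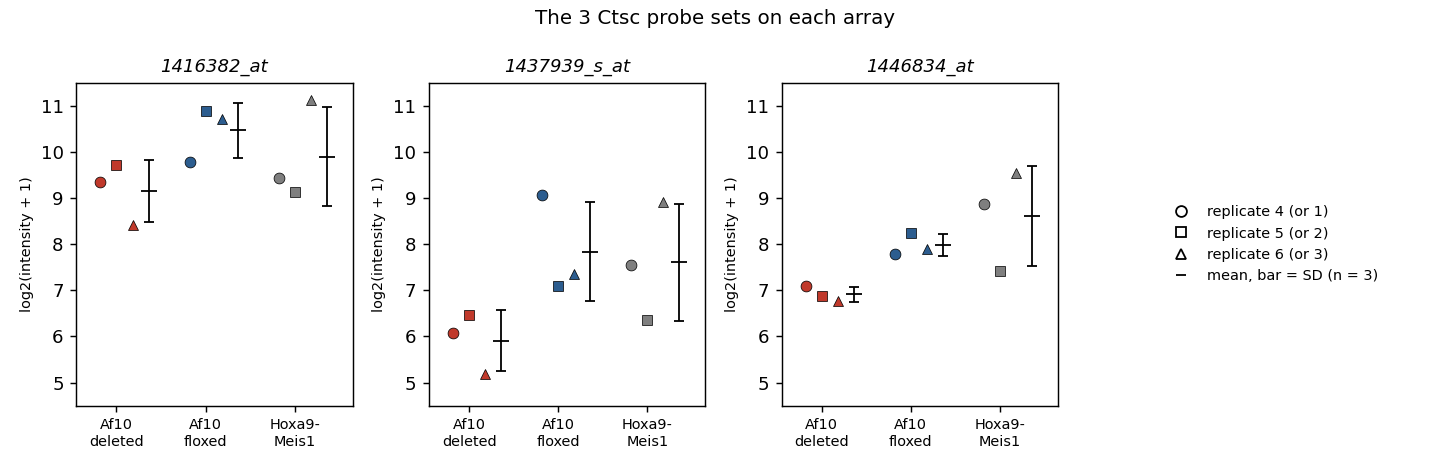
The 3 probe sets of Ctsc on every array, as log2(intensity + 1), on 1 common axis that does not start at 0; points are arrays, and the bar beside them is the mean with its SD (n = 3). Deleted arrays lie below floxed arrays in each panel, and the Hoxa9-Meis1 arrays spread widely, with replicate 3 the highest of its group.

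Comparison with Hoxa9-Meis1 leukemia asks how the MLL-AF9 leukemias differ from a leukemia driven by factors downstream of MLL fusions. Again 0 of 7 members were called by limma in floxed against Hoxa9-Meis1 leukemias, where 8.89% of all genes were called (of all probe sets 9.01%, with 0 of 9 members'), and 0 of 7 in deleted against Hoxa9-Meis1 leukemias, where 15.5% were. These comparisons and the first share their groups, so their values are given side by side and not as separate support. Means lay below Hoxa9-Meis1 for 6 of 7 members in floxed leukemias, with a median of -0.25 against -0.01 for all genes, and for 5 of 7 in deleted leukemias, with a median of -0.26 against 0.05. At an unadjusted p under 0.05, 3 members passed in the floxed comparison (Ctsg, Mpo and Ms4a3) and 2 in the deleted comparison (Mpo and Ctsg), while 23.9% and 28.7% of all genes did.

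Ctsg had a difference of -0.45 (SE 0.14, 95% interval -0.77 to -0.13, limma adjusted p = 0.0855) in floxed and of -0.38 (95% interval -0.71 to -0.06, limma adjusted p = 0.109) in deleted leukemias against Hoxa9-Meis1. Mpo had -0.32 (SE 0.12, 95% interval -0.59 to -0.05, limma adjusted p = 0.137) and -0.34 (95% interval -0.61 to -0.07, limma adjusted p = 0.094). These 2 genes had arrays that did not overlap with Hoxa9-Meis1 in either comparison. Srgn did not overlap in the floxed comparison (-0.25, limma adjusted p = 0.256), and Prtn3 did not in the deleted one, where it was the higher (0.30, limma adjusted p = 0.509). That makes 3 members each, where 27.6% and 34.9% of all genes did not overlap. The calls of Ctsg and Mpo turned on the model: with array weights Ctsg passed in both comparisons (limma adjusted p = 0.0357 and 0.0354) and Mpo in the deleted one (0.0466), and with a variance trend Ctsg passed in the floxed comparison (0.0418) and Mpo in the deleted one (0.0301).

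Elane, Ms4a3 and Ctsc were less settled against Hoxa9-Meis1. Elane differed by -0.20 (95% interval -0.75 to 0.35) in floxed and by 0.19 (95% interval -0.36 to 0.74) in deleted leukemias. Ms4a3 differed by -0.63 (SE 0.24, limma adjusted p = 0.135) in floxed leukemias, was called without floxed replicate 6 (-0.88, limma adjusted p = 0.0387), and differed by -0.17 in deleted leukemias (limma adjusted p = 0.705). Ctsc differed by 0.57 in floxed and -0.74 in deleted leukemias by its brightest probe set, with intervals of -0.65 to 1.79 and -1.96 to 0.49. Probe set 1446834_at of Ctsc was lower in deleted than in Hoxa9-Meis1 leukemias, by -1.70 (SE 0.44, limma adjusted p = 0.0334 over all probe sets), the 1 call among 9 member probe sets in all 3 comparisons, where 15% of all probe sets were called and 7.82% were called lower. That call was lost with a pseudocount of 32.

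**Figure D3:**
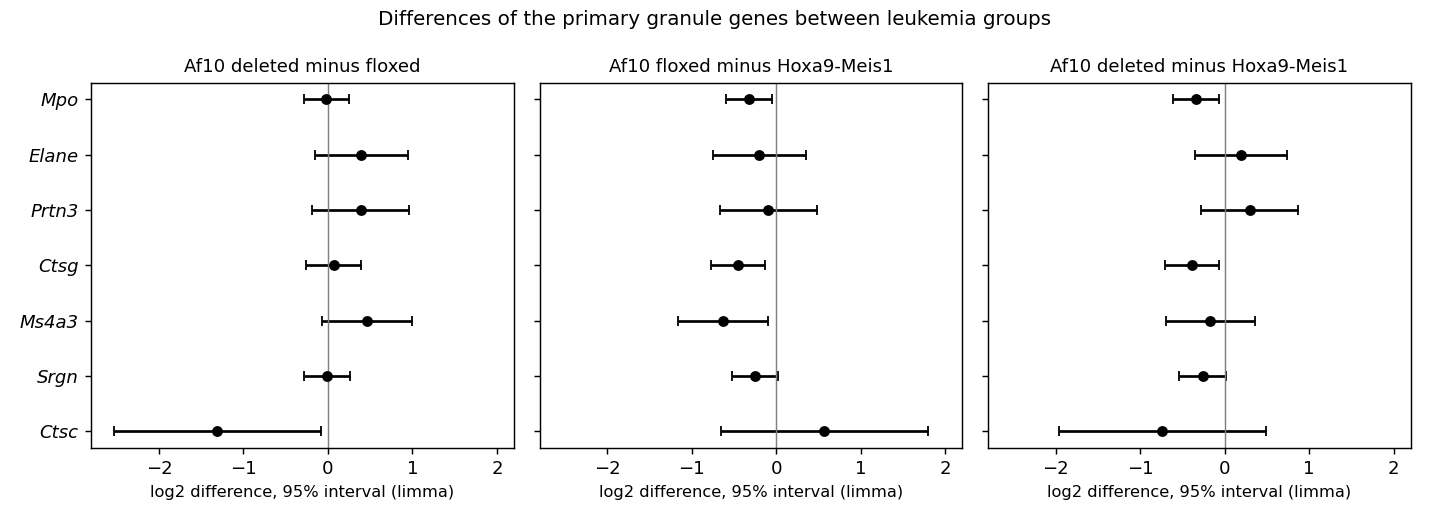
Log2 difference of each primary granule gene in 3 comparisons, from limma with all 9 arrays, as points with 95% intervals (horizontal axis, log2 units; the line marks 0). Intervals of Mpo, Ctsg and Srgn are narrow, those of Ctsc are wide, and no gene passed an adjusted p of 0.05 in any panel.

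By order of group means, Mpo and Srgn went deleted, floxed, Hoxa9-Meis1 from low to high, with the first 2 closer than their spread. Ctsg went floxed, deleted, Hoxa9-Meis1, again with the MLL-AF9 groups closer than their spread, and Ms4a3 had the same order with deleted and Hoxa9-Meis1 arrays overlapping. Elane and Prtn3 had the deleted group highest (13.78 ± 0.08 and 13.67 ± 0.15, SD, n = 3), and their floxed group lowest (13.39 ± 0.54 and 13.28 ± 0.60), a place it owed to replicate 5: without it floxed leukemias lay 0.11 above Hoxa9-Meis1 for Elane and 0.25 above for Prtn3. For Ctsc the order was deleted, Hoxa9-Meis1, floxed by 2 probe sets and deleted, floxed, Hoxa9-Meis1 by 1446834_at, with the last 2 groups overlapping in each.

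The probe sets of Mpo, Srgn, Ctsg, Elane, Prtn3 and Ms4a3 stood between percentiles 96.9 and 99.9 of their arrays, with Mpo reaching an intensity of 19622 where the brightest probe set of any array read 32082. Brightness of different probe sets is no measure of relative abundance. Array signals can rise less than in proportion to transcript near the top of their range, and how far this held down differences of these 6 genes was not tested. Ctsc was outside this range, at intensities of 340 to 2214 for its brightest probe set.

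Of 21 measured (26 listed) genes for other granule and lysosome contents, 1 rose after deletion: Neu1, a lysosomal sialidase, from 9.58 ± 0.38 to 10.71 ± 0.28 (SD, n = 3; 2.18-fold, limma adjusted p = 0.0233). Of its 3 probe sets 1 was called, and the call was lost without any of 4 single arrays, deleted 4, deleted 5, floxed 4 or floxed 5 (limma adjusted p up to 0.0901), and with a block on replicate number (0.099). The list median was -0.11. In deleted against Hoxa9-Meis1 leukemias Ctsh, another lysosomal cathepsin, was lower by -0.86 (limma adjusted p = 0.0264, up to 0.076 with 1 array left out), and in floxed against Hoxa9-Meis1 leukemias limma called 0 of 21 (3 at an unadjusted p under 0.05).

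Of 9 measured transcription factor genes known to act on primary granule genes, limma called 1 after deletion, and it fell. The list median was 0.40, above 0, and 5 of the 9 had an unadjusted p under 0.05. Irf8, which favours monocytes over granulocytes, fell from 11.22 ± 0.42 to 9.35 ± 0.32 (SD, n = 3; 3.67-fold, limma adjusted p = 0.0151, and 0.0538 without deleted replicate 4). It was as far below Hoxa9-Meis1 leukemias (-1.87). Cebpa, whose product drives granulocyte commitment, was at 11.42, 10.78 and 11.51 in deleted, 10.63, 10.40 and 9.99 in floxed and 11.53, 11.21 and 11.67 in Hoxa9-Meis1 leukemias. It was lower in floxed than in Hoxa9-Meis1 leukemias by -1.13 (limma adjusted p = 0.0189, and 0.0528, 0.0519 and 0.0755 without floxed replicate 5, floxed replicate 6 and Hoxa9-Meis1 replicate 1). Deleted minus floxed was 0.90 (95% interval 0.37 to 1.43, limma adjusted p = 0.0527). Myb and Spi1 (PU.1), named after their values were seen because their motifs were searched, differed by -0.013 (95% interval -0.28 to 0.25) and 0.77 (95% interval 0.22 to 1.32, limma adjusted p = 0.1) between deleted and floxed leukemias. Spi1 was lowest on floxed replicate 5 as well, at 10.85, against 11.78 and 11.84 on the other floxed arrays. Cebpb and Cebpd, also named after their values were seen, were not called after deletion. Cebpb was at 12.11, 12.32 and 12.01 in deleted and 11.55, 10.80 and 11.26 in floxed leukemias. Cebpd was at 11.93, 11.97 and 12.51 in deleted and 11.01, 9.73 and 11.36 in floxed leukemias.

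Of 7 measured inhibitors of the granule proteases, 1 fell after deletion. Slpi, which encodes a secreted inhibitor of elastase and cathepsin G, was at 12.84, 13.24 and 13.22 in deleted, 14.19, 14.05 and 14.27 in floxed and 13.01, 12.92 and 13.20 in Hoxa9-Meis1 leukemias. The floxed arrays all lay above the other 6. Slpi fell by 1.07 (log2) after deletion (2.10-fold, limma adjusted p = 0.00299) and was higher by 1.13 in floxed than in Hoxa9-Meis1 leukemias (limma adjusted p = 0.00213), and both calls held when any 1 array was left out. Serpinb6a, an intracellular inhibitor of cathepsin G, was higher than in Hoxa9-Meis1 leukemias in floxed (1.16, limma adjusted p = 0.039) and in deleted leukemias (0.99, limma adjusted p = 0.0477). Its calls were lost when any of several single arrays was left out (limma adjusted p up to 0.145 and 0.167) and with a pseudocount of 32 (0.0518 and 0.0633).

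Of 15 genes for granule biogenesis and release 0 were called by limma after deletion (5 at an unadjusted p under 0.05), at a median of 0.21, and in deleted against Hoxa9-Meis1 leukemias Stx11, a syntaxin of granule release, was higher by 1.34 (limma adjusted p = 0.0168, up to 0.0689 with 1 array left out). Of 12 genes that build the glycosaminoglycan chains of proteoglycans such as serglycin, Chsy1, a chondroitin synthase gene, fell by 0.80 after deletion (limma adjusted p = 0.0139, and 0.0527 without deleted replicate 4). In deleted against Hoxa9-Meis1 leukemias 4 of the 12 were called: Chst15, a chondroitin sulfotransferase gene, was higher (1.31) and Ext1 (-0.96) and Chsy1 (-0.52) were lower, calls lost in 1, 4 and 6 of 14 alternatives. The other was B3galt6, which adds a galactose to the linkage of such chains. By its brightest probe set it was higher in floxed (7.58-fold, limma adjusted p = 0.000888) and deleted (9.78-fold, limma adjusted p = 0.000226) than in Hoxa9-Meis1 leukemias, with 2 and 3 of its 3 probe sets called. Averaged over the 3 probe sets these differences were 1.41 and 1.75 on the log2 scale, both still called. Of 7 heme synthesis genes, which supply the heme of myeloperoxidase, limma called 0 in each of the 3 comparisons, with 1 in each at an unadjusted p under 0.05.

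**Figure D4:**
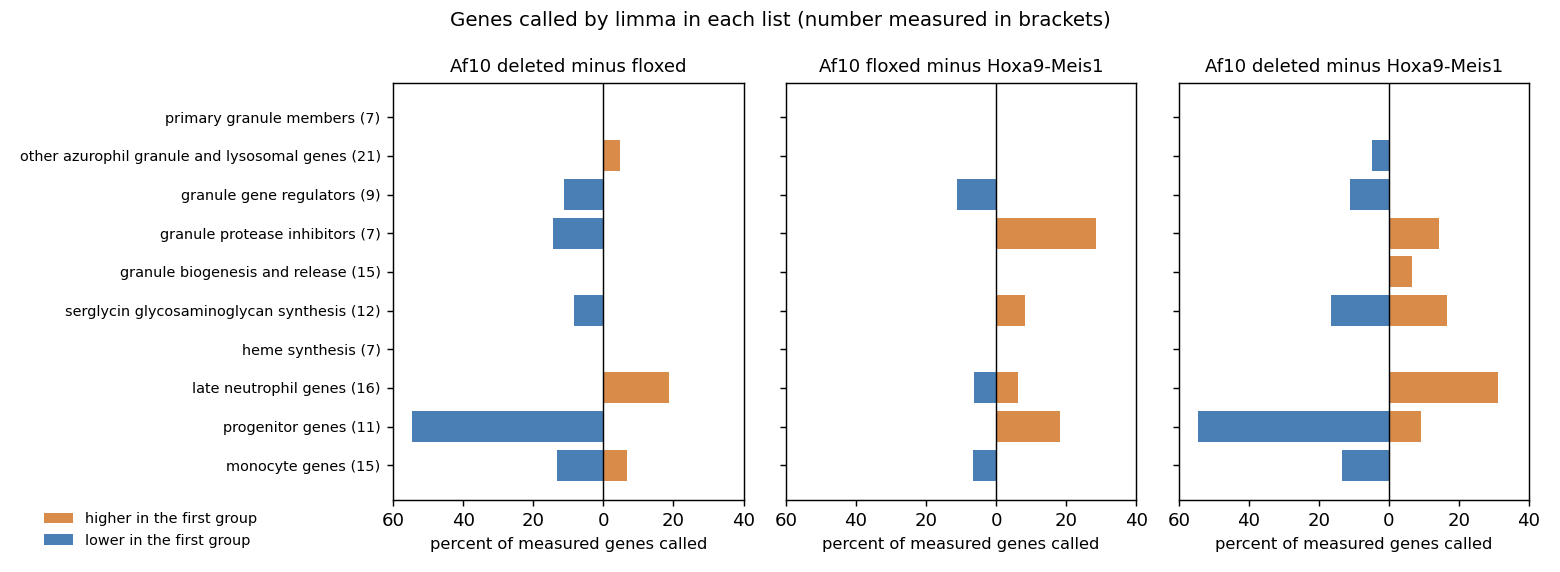
Percent of measured genes called by limma in each list, higher to the right and lower to the left of 0, for 3 comparisons; the number measured is in brackets. The primary granule and heme synthesis lines are empty in all panels, and progenitor genes were the most often lower after deletion, 6 of 11.

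The stages before and after the promyelocyte are listed beside the members. Of 11 progenitor genes 6 fell after deletion, led by Flt3 (-4.56) and Cd34 (-3.57), whose calls held in all 15 alternatives. The calls of Kit, Bmi1 and Meis1 were lost in 10, 9 and 6 of the 15, and Mycn went from -1.05 to -0.27 (limma adjusted p = 0.135) when its probe sets were averaged, with 1 of its 3 in this direction. Of 16 late neutrophil genes 3 rose, Lrg1 (2.18), Cxcr2 (1.90) and Wfdc21 (1.68, limma adjusted p = 0.0452, up to 0.119 with 1 array left out). The call of Lrg1 held in all 15 alternatives, and that of Cxcr2 was lost with the block on replicate number (limma adjusted p = 0.0594). That of Wfdc21 was lost in 9 of the 15 (limma adjusted p up to 0.153). Among floxed arrays all 3 were lowest on replicate 5, as were Elane, Prtn3 and Ms4a3: Lrg1 at 7.66, Cxcr2 at 8.09 and Wfdc21 at 10.81. Of 15 monocyte genes 2 fell, Ly86 (-2.93) and Ccr2 (-1.71), and 1 rose, F13a1 (1.06). The call of Ly86 held in all 15 alternatives, while Ccr2 was lost in 6 (limma adjusted p up to 0.232) and F13a1 in 2, 1 of them the block on replicate number (0.0524). Whether the primary granule genes differ from these lists was not tested. Over these lists summed intensity ran, in deleted and floxed leukemias, from 72059 to 81804 and from 57055 to 75767 for the 7 members, from 13099 to 14669 and from 29860 to 32337 for progenitor genes, and from 123582 to 155201 and from 79739, on floxed replicate 5, to 131468 for late neutrophil genes. For monocyte genes it ran from 29626 to 41008 and from 39573 to 47113, and from 37019 to 76622 in Hoxa9-Meis1 leukemias. It was lowest on deleted replicate 6 and highest on Hoxa9-Meis1 replicate 3, the arrays on which the brightest Ctsc probe set was lowest and highest, and its part in the Ctsc values was not tested.

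Markers of other blood and stromal cells are given beside the members. After deletion limma called 0 of 7 erythroid, 0 of 9 mast cell, basophil and eosinophil and 0 of 7 stromal and endothelial markers, with 0, 2 and 0 at an unadjusted p under 0.05. Of 8 leukocyte and myeloid markers it called Csf2ra (0.93) and Fcgr3 (0.88) higher, calls lost in 11 and 3 of 15 alternatives. It called Cd79b lower (-0.75) among 7 B cell markers, whose median difference was 0.39, above 0. The summed intensity of these B cell markers was 1557 to 1718 in deleted and 2317 to 3537 in floxed leukemias. Of 7 T and NK cell markers 3 were called higher, Cd3e (0.93), Gzma and Klrd1, and both lists had 6 of 7 genes at an unadjusted p under 0.05. Gzma and Klrd1 give no sized difference, since their floxed means of 4.49 and 4.18 are background levels: probe sets for Y-linked genes, taken as background, read 2.97 to 4.71. The summed intensity of the T and NK cell markers was 662 to 771 in deleted, 438 to 452 in floxed and 407 to 455 in Hoxa9-Meis1 leukemias. In Hoxa9-Meis1 leukemias mast cell, basophil and eosinophil markers summed to between 4333 and 17012, against 3545 to 6637 in the MLL-AF9 groups, with Cpa3 lower by -4.28 in floxed and -6.25 in deleted leukemias. The part of such cells in the members' values was not tested.

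The genes whose pattern over the 9 arrays was most like the mean of the 7 members, each centred on its own mean, were Sdf2l1 (Pearson's r = 0.96), Cables2 (0.93), Ap3b1 (0.92), Fbrsl1 (0.92) and Cnpy3 (0.91). These 5 were picked as the highest of all genes, and the mean is weighted towards members with a wide spread such as Ctsc. The mean profile was lowest on floxed replicate 5 (-0.27) and deleted replicate 6 (-0.22) and highest in Hoxa9-Meis1 replicates 1 and 3 (0.15 each). Sdf2l1, an endoplasmic reticulum protein gene, was at 11.16, 11.05 and 10.66 in deleted, 10.98, 10.55 and 11.26 in floxed and 11.14, 11.21 and 11.39 in Hoxa9-Meis1 leukemias, with its lowest values on the same 2 arrays. Ap3b1, which encodes a subunit of the AP-3 adaptor that sorts proteins to lysosome-like granules, was at 10.64 on deleted replicate 6 and 10.82 on floxed replicate 5.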

How the data were processed

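Array intensities of 45101 probe sets were used for 9 samples in 3 groups of 3. The deposited intensity values are on a linear scale; RMA (by its definition background correction, quantile normalization and median polish) was used by the authors, per the submitters' processing notes, with version, software and chip definition not stated there. Quantile normalization removes a change shared by most genes. Here log2(value + 1) was taken, so changes at low signal are somewhat understated.

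Gene symbols came from the platform annotation: 34958 probe sets had 1 symbol, 932 several and 9211 were not listed. Gene IDs of 34754 probe sets matched a RefSeq table (GRCm38.p6). No build is named for the deposited values, and the only coordinates given are those of RefSeq promoters. For each of 18194 genes the brightest probe set, by its mean across the 9 arrays, was taken.

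One group-means model over all 9 arrays was fitted with limma 3.58.1 (lmFit, eBayes) in R 4.3.3, two-sided, with Benjamini-Hochberg adjustment over all genes, and a second over all probe sets. Adjusted p under 0.05 was a call, and the 95% intervals come from the same fit. The script was tested on simulated data. The number of arrays limits the precision. Groups and the replicate numbers 4, 5 and 6 came from the labels, and Hoxa9-Meis1 arrays were numbered in accession order.

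The members, the gene lists and the rule for naming genes were chosen with earlier results of these data known. Named were all members, up to 4 called genes of each other list with the largest difference, the 5 genes most like the members' mean profile, and called neighbours. Alternatives were a pseudocount of 32, averaging the probe sets of a gene, leaving out genes with a mean under 6, quantile normalization, array weights, a variance trend, only the 2 groups compared, the replicate number as a block, and leaving out arrays.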

Additional observations from a re-analysis of the deposited data

How the results depend on the processing

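The direction and call of 21 member differences (7 genes in 3 comparisons) were recomputed with each alternative, which gave 301 values that are not independent. Of these, 6 passed the threshold and 16 changed sign, all of the latter for differences that were not called. Counts of members called stayed at 0 with each alternative in deleted against floxed leukemias. In floxed against Hoxa9-Meis1 leukemias the number of members called lower was 1 with array weights and 1 with a variance trend. In deleted against Hoxa9-Meis1 leukemias it was 2 and 1. Leaving out 1 array gave 0 to 1 in the floxed comparison. Of all genes, 603 and 1134 were called lower in these 2 comparisons in the main fit. Over all alternatives these counts ran from 248 to 947 and from 647 to 1572. Member probe sets called lower in deleted against Hoxa9-Meis1 leukemias went from 1 to 0 with a pseudocount of 32.

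In deleted against floxed leukemias, leaving out 1 array moved the difference of Mpo from -0.077 to 0.061, of Ctsg from -0.00064 to 0.18 and of Srgn from -0.080 to 0.041. With both deleted 6 and floxed 5 left out these were 0.051, -0.024 and 0.022, and Srgn was 0.022 with array weights. In floxed against Hoxa9-Meis1 leukemias, leaving out 1 array moved Elane from -0.36 to 0.11 and Prtn3 from -0.32 to 0.25, both ends above 0 being those without floxed replicate 5, as also when deleted replicate 6 was left out with it (0.11 and 0.25), and Prtn3 was 0.12 with array weights. The cause was not tested.

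The replicate number as a block gave 0 members called in deleted against floxed leukemias, with 249 genes called higher and 350 lower, against 585 and 661 without it. Same-numbered arrays correlated at 0.01 to 0.05 in their deviations over 14034 genes, and differently numbered ones at -0.14 to 0.099. With so few arrays this measure cannot show whether the numbers pair the samples, and the labels do not say. Over all alternatives genes called ranged from 215 to 655 higher and 283 to 726 lower in deleted against floxed, 433 to 1596 and 248 to 947 in floxed against Hoxa9-Meis1, and 893 to 2537 and 647 to 1572 in deleted against Hoxa9-Meis1 leukemias. With 3 arrays per group, the 95% interval of Mpo, the narrowest, ran from -0.29 to 0.25 (log2) in deleted against floxed leukemias. That of Ctsc ran from -2.53 to -0.09. An interval without 0 was not enough for a call: Ctsg at -0.45 in floxed against Hoxa9-Meis1 leukemias was not called (limma adjusted p = 0.0855). Changes of such sizes could thus go undetected.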

Other observations

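The chromosomal neighbours of the members, the 3 nearest measured genes on each side, were 36 genes, of which limma called 0 higher and 3 lower (8.33%) in deleted against floxed leukemias, where 6.85% of all genes were called. Those were Tmem135, near Ctsc on chromosome 7 (-1.09, limma adjusted p = 0.0276), Oosp1, near Ms4a3 on chromosome 19 (-1.51, limma adjusted p = 0.0106), and 1110028F11Rik, near Mpo on chromosome 11 (-0.81, limma adjusted p = 0.048). In floxed against Hoxa9-Meis1 leukemias 4 of the 36 were lower: Lpo, Tspoap1 (-0.86, limma adjusted p = 0.0353) near Mpo, Plppr3 (-0.85, limma adjusted p = 0.0463) near Elane and Prtn3, and Ms4a2 (-2.99, limma adjusted p = 0.036) near Ms4a3. In deleted against Hoxa9-Meis1 leukemias Lpo and Oosp1 (-2.09, limma adjusted p = 0.00109) were lower. None of the genes beside Elane, Prtn3, Ctsg or Srgn was called in deleted against floxed leukemias.

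Lpo, which encodes lactoperoxidase and lies next to Mpo, was at 6.78 ± 0.52 in deleted, 7.15 ± 0.18 in floxed and 9.02 ± 0.72 in Hoxa9-Meis1 leukemias (SD, n = 3 each). It was lower than in Hoxa9-Meis1 leukemias by -2.23 (limma adjusted p = 0.00386) in deleted and by -1.86 (limma adjusted p = 0.0143) in floxed leukemias, the same direction as the smaller differences of Mpo, which did not pass.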
